A study of Mus musculus with 36 samples.

Results

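The genes described here are 36 genes of protein folding and stress in the endoplasmic reticulum (ER), taken by name from the 39017 genes of a cochlear RNA-seq count table. They comprise 11 chaperones and co-chaperones, 2 glycoprotein lectins, 6 disulfide isomerases, 3 stress sensors, 4 genes of the stress response downstream of the sensors, 8 genes of ER-associated degradation and 2 translocon subunits. All 36 were found by symbol and passed the filter on low counts, which kept 22556 genes. The cochlea is the hearing organ of the inner ear. It was taken from CBA/Sca mice aged 12 weeks that had been sham-operated or adrenalectomized (ADX), and both groups were otherwise unmanipulated as far as the labels say. Adrenalectomy removes the adrenal source of glucocorticoids together with the other adrenal hormones. The labels name no hormone replacement. Each status was sampled at the circadian times (CT, in h) CT04, CT08, CT12, CT16, CT20 and CT24. Each combination of the 2 statuses and 6 times had 3 libraries, which makes 18 per status and 36 in all. By convention CT12 opens the subjective night. The comparisons ask how these genes varied over the day, and whether the variation or the level differed in animals without adrenal glands.

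Proteins of the secretory pathway fold in the ER lumen, where Hsp70- and Hsp90-type chaperones, lectins that bind glycan chains and isomerases that make and break disulfide bonds act on them. Unfolded proteins are sensed by 3 membrane proteins, encoded by Atf6, Ern1 (IRE1) and Eif2ak3 (PERK). Their signals, carried by the cleaved ATF6, by the spliced mRNA of Xbp1 and by translation of Atf4, raise the transcription of chaperone and degradation genes. Proteins that fail to fold are moved back to the cytosol and degraded (ER-associated degradation). In the cochlea, hair cells, supporting cells, fibroblasts and the stria vascularis make membrane and matrix proteins through this pathway.

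Libraries held between 18999408 and 28995197 counts, and the lowest raw count of any of the 36 genes in any library was 48 (Trib3). Defining transcripts of hair cells were present: 0 of 10 markers were at 0 in all libraries, and their summed level lay between 339.9 and 504 CPM (the count scaled to a common library size) in sham and between 364 and 439 CPM in ADX. Some libraries carried transcripts of neighbouring tissue. The summed level of 10 skeletal muscle markers reached 673 CPM in ADX CT20 replicate 3 against at most 136 CPM in any sham library. The summed level of pituitary markers reached 1544 CPM in sham CT16 replicate 3 against a sham median of 6.04 CPM. The main counts are given with and without 2 sets of libraries. These are the 3 ADX libraries of highest muscle signal (CT12 replicate 1, CT16 replicate 2 and CT20 replicate 3) and the 5 libraries with over 50 CPM of the pituitary hormone transcript Gh (high Gh, sham CT08 replicates 2 and 3 and CT16 replicate 3, ADX CT24 replicates 1 and 2). In whole tissue, fewer cells of a type and less RNA per cell cannot be told apart.

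The factors that the sensors release are known to bind short promoter elements, and these were searched on both strands in the window from 250 bases before to 50 bases after each RefSeq start (GRCm38.p6). Windows were available for 30 of the 36 genes, and there were 32851 windows in all. Counts among the 30 are of genes and the shares are of windows, of which a gene can have several. The ER stress response element (ERSE: CCAAT, then 9 bases of any kind, then CCACG) was found for 9 of the 30 genes and in 0.119% of all windows. The sequences that follow show it in capitals, 5′ to 3′ on the gene's strand, because the genes that carry it include many of those with large daily changes described further on. Sdf2l1, which had the largest change, and Pdia3 and Pdia4 had windows without it. No window was available for Manf and Hyou1, whose changes were also large. The element read on the opposite strand starts with CGTGG and ends with ATTGG. Hsp90b1 held a pair of sites.
Hspa5 (GRCm38.p6 chr2:34772020-34772048, plus strand): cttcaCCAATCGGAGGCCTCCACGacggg
Hsp90b1, distal site (GRCm38.p6 chr10:86705618-86705676, minus strand): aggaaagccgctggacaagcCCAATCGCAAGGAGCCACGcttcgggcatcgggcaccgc
Hsp90b1, proximal site (GRCm38.p6 chr10:86705513-86705571, minus strand): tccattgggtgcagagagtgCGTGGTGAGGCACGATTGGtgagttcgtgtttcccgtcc
Calr (GRCm38.p6 chr8:84847055-84847113, minus strand): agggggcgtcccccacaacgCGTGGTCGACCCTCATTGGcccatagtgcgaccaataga
Canx (GRCm38.p6 chr11:50325780-50325838, minus strand): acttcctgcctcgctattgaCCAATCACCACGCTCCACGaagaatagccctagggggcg
Pdia6 (GRCm38.p6 chr12:17266471-17266529, plus strand): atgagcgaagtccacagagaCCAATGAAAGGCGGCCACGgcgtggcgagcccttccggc
Dnajc3 (GRCm38.p6 chr14:118937807-118937865, plus strand): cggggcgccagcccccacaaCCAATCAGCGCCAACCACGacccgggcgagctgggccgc
Creld2 (GRCm38.p6 chr15:88819500-88819558, plus strand): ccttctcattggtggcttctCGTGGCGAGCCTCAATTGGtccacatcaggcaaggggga
Derl3 (GRCm38.p6 chr10:75893222-75893280, plus strand): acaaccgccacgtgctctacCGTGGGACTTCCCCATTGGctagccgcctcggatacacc
Syvn1 (GRCm38.p6 chr19:6046512-6046570, plus strand): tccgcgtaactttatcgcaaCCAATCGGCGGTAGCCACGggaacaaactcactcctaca
The Hspa5 site ended 47 bases and the Syvn1 site 26 bases before the RefSeq start, and the distal Hsp90b1 site began 212 bases before it. The run for Hspa5 is shorter because a GENCODE exon of Hspa5 overlaps the site or the bases next to it.

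The second element, ERSE-II (ATTGG, 1 base of any kind, CCACG), was in the windows of Herpud1 and Dnajb11 and in 0.0365% of all windows. In Dnajb11 it lay just after the start and is not printed. Herpud1 also held the amino acid response element (AARE, TGATGCAA, in 0.895% of all windows), the type of site that ATF4 binds, read here on the opposite strand.
Herpud1, ERSE-II (GRCm38.p6 chr8:94386357-94386407, plus strand): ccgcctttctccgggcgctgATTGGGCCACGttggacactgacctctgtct
Herpud1, AARE (GRCm38.p6 chr8:94386297-94386344, plus strand): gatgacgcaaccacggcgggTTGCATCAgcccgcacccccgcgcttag
Of the other motifs searched, the unfolded protein response element (UPRE, TGACGTGG, in 0.676% of all windows) was found in Txndc5. The E-box of the core clock factors (CACGTG, in 7.15% of all windows) was found in Calr, Derl3, Dnajb9 and Txndc5. The heat shock element (GAA, TTC and GAA with 2 bases of any kind between each, in 0.603% of all windows) was found for 0 of the 30 genes. Matches to different motifs shared no base in the windows of the 30 genes. A match is a stretch of letters, and binding was not measured.

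Most of the folding genes were low through the subjective day and high at CT16 and CT20. A cosine of 24 h was fitted per status to each gene in edgeR, and a gene was called when its quasi-likelihood test had a Benjamini-Hochberg adjusted p under 0.05 over all 22556 genes. In sham 25 of the 36 genes were called, where 16.08% of all genes were. In ADX 21 were called (9.4% of all genes), and 19 were called in both (5.62% of all genes). The mean rhythm of both statuses, called the shared rhythm below, was called for 27 of the 36 (32.5% of all genes). Of those 27, 21 had a fitted peak between 16 and 21 h, as did 2560 of the 7331 genes with a shared rhythm. Over all genes tested, that is 21 of the 36 against 11.35%. Without the 3 muscle-high libraries the counts were 25 in sham, 19 in ADX and 26 shared. Without the 5 libraries of high Gh they were 21, 21 and 25. Across 44 alternative fits, 25 of the 27 kept the call in every fit, and Sel1l and Derl2 did not.

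**Figure D1:**
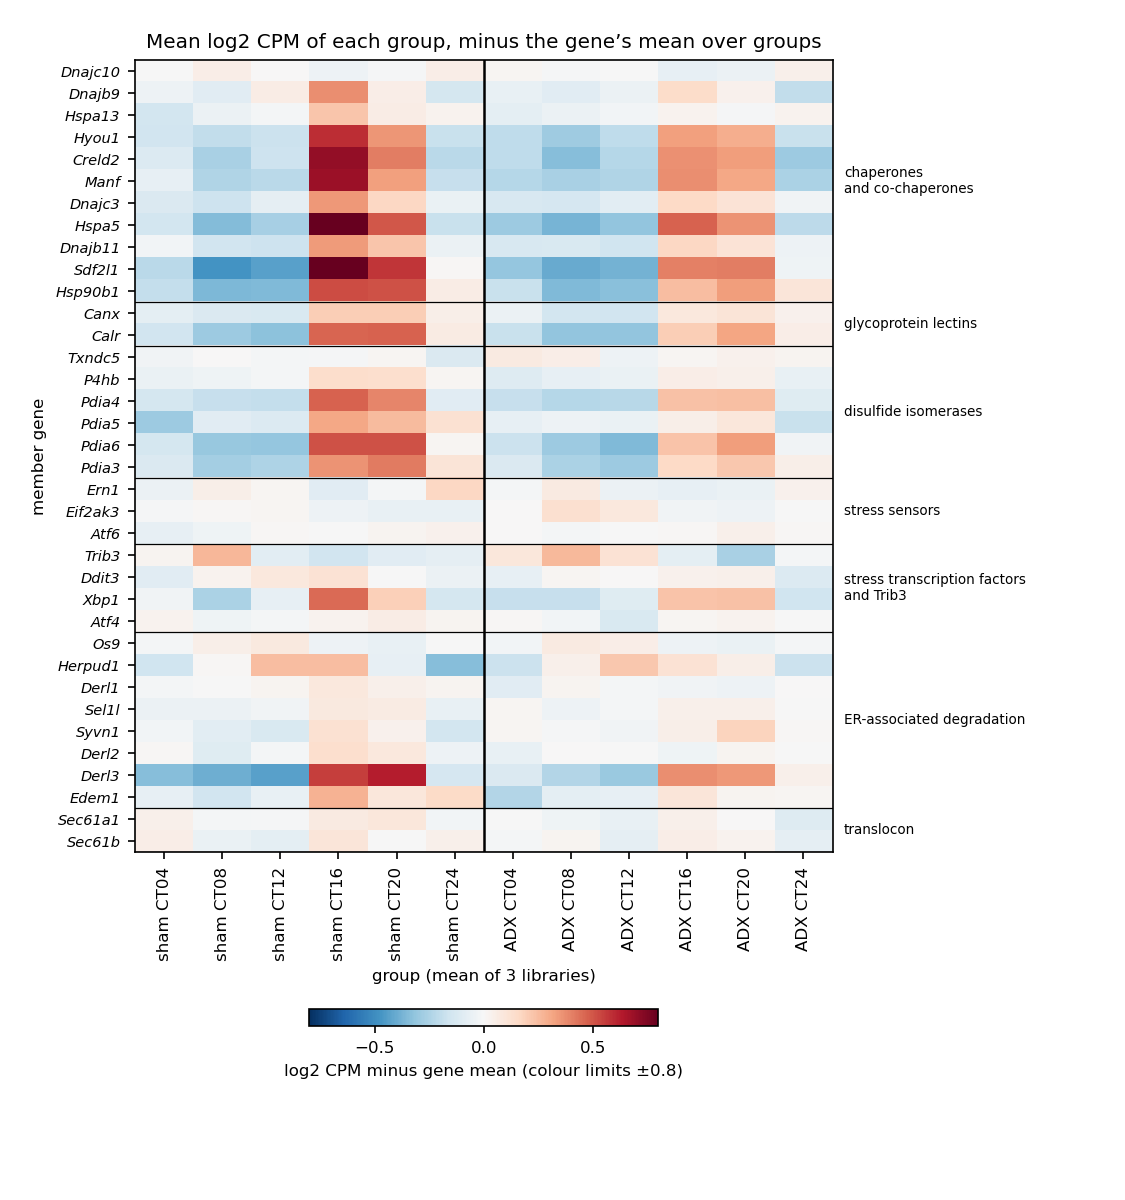
Mean log2 CPM of each of the 36 genes (rows, by role) in the 12 groups of 3 libraries (columns), minus the gene's mean over the groups. Red marks groups above the gene's mean. In chaperones, lectins and most disulfide isomerases red columns stand at CT16 and CT20 in both statuses, and they are darker in sham CT16 than in ADX CT16, while the rows of sensors and translocon subunits stay pale.

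Hspa5 encodes BiP, the Hsp70 chaperone of the ER lumen that also holds the sensors inactive (ENSMUSG00000026864, chromosome 2, 34771970 to 34777547, plus strand). In sham its libraries measured 422, 466 and 436 CPM at CT12 and 860.3, 997 and 918 CPM at CT16. They then measured 684, 779 and 787 CPM at CT20, 454, 480.1 and 471 CPM at CT24, 459, 517 and 459 CPM at CT04 and 415, 428 and 407 CPM at CT08. All 6 libraries of CT16 and CT20 lay above the other 12, and the step from CT12 to CT16 took place within a single sampling interval of 4 h. In ADX the libraries measured 429, 432 and 420.3 CPM at CT12, 794, 706 and 704 CPM at CT16 and 685, 753 and 602 CPM at CT20. The remaining 9 ADX libraries, from CT24, CT04 and CT08, lay between 387 and 463 CPM, so that the groups again separated without overlap. The fitted peak-to-trough difference was 1.04 ± 0.14 (log2, SE) in sham and 0.86 ± 0.14 in ADX, a 2.06-fold and a 1.82-fold change. The fitted peak stood at 18.03 ± 0.51 h for sham and at 18.22 ± 0.62 h for ADX (edgeR adjusted p of the shared rhythm 1.92e-08).

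**Figure D2:**
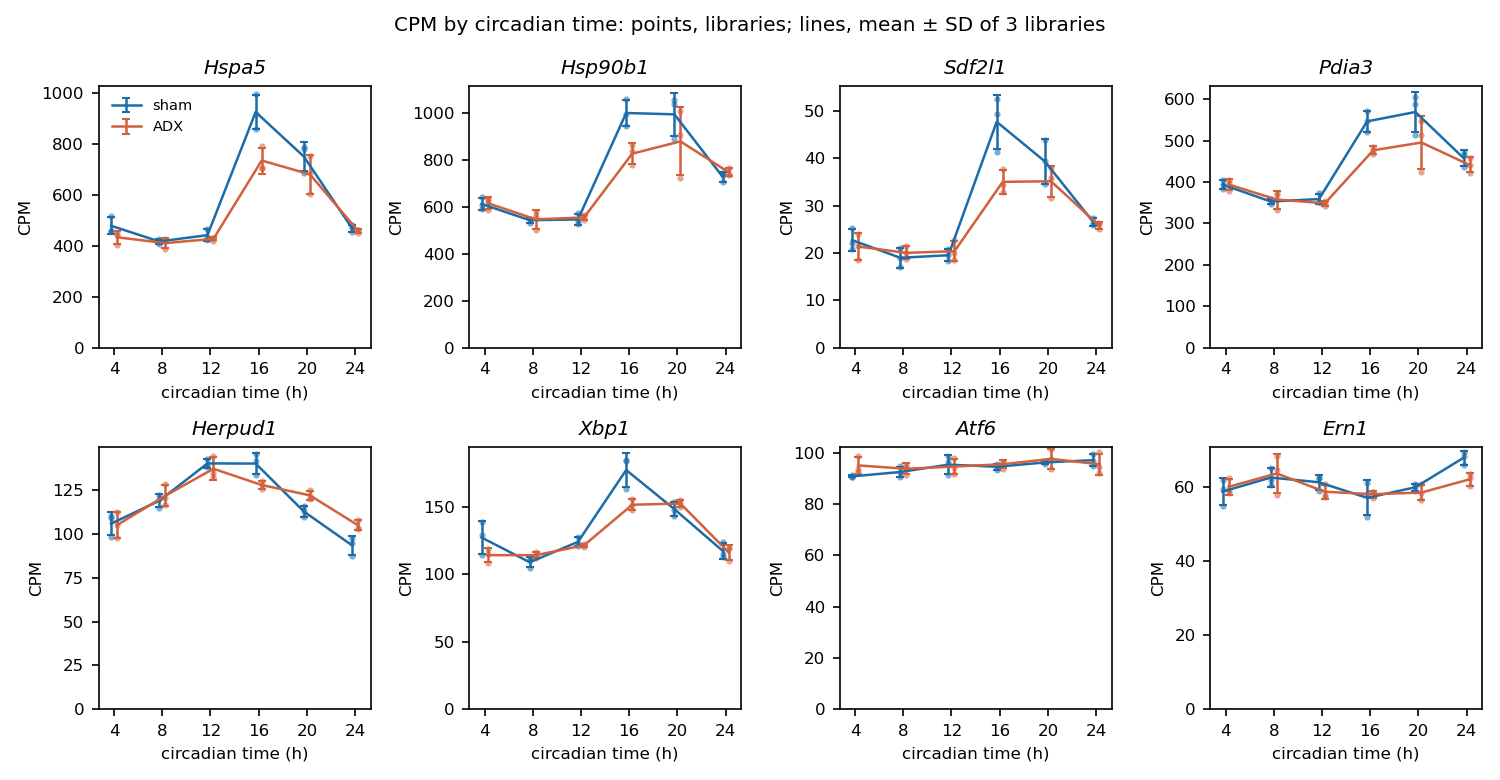
CPM (vertical axes, from 0) against circadian time in h for 8 of the 36 genes, with each library as a point and lines through the mean ± SD of 3 libraries, sham in blue and ADX in orange. Hspa5, Hsp90b1, Sdf2l1, Pdia3 and Xbp1 step up between CT12 and CT16, Herpud1 is already high at CT12, and Atf6 and Ern1 are nearly level.

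Hsp90b1, the Hsp90 paralog of the ER (GRP94; ENSMUSG00000020048, chromosome 10, 86690209 to 86705509, minus strand), measured 528, 571 and 537 CPM in sham at CT12 and 944, 1058 and 993 CPM at CT16. In ADX it measured 556, 541 and 564 CPM and 864, 775 and 836 CPM at these times. The CT16 libraries lay above the CT12 libraries without overlap in both statuses, and the peak-to-trough difference was 0.97 ± 0.09 in sham and 0.74 ± 0.09 in ADX (log2, SE). The same-strand transcript Gm15344, which overlaps Hsp90b1, held 13.8% as many counts as Hsp90b1 itself, and reads of the overlap cannot be assigned with certainty. Sdf2l1, a component of the BiP co-chaperone complex, had the largest fitted change of the 36 genes. Its sham libraries measured 18.2, 19.6 and 20.8 CPM at CT12 and 41.3, 52.4 and 49.4 CPM at CT16. In ADX they measured 19.96, 18.5 and 22.7 CPM and 37.7, 32.9 and 34.4 CPM. The fitted differences were 1.27 ± 0.15 in sham and 0.92 ± 0.15 in ADX, with every CT16 library above every CT12 library in both statuses. Hyou1 (GRP170), the nucleotide exchange factor of BiP, went from 157, 154 and 147 CPM at CT12 to 236, 270.4 and 270.3 CPM at CT16 in sham and from 148, 152 and 149 to 227, 204 and 216 CPM in ADX. Its fitted differences were 0.76 ± 0.11 and 0.64 ± 0.11.

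Among the other co-chaperones, Creld2 and Manf, small secreted or luminal proteins induced by ER stress, had fitted differences of 0.87 ± 0.14 and 0.78 ± 0.13 in sham and 0.72 ± 0.14 and 0.68 ± 0.13 in ADX (log2, SE). Manf overlaps Dcaf1 on the opposite strand and Rbm15b on its own, whose counts came to 96.8% and 22.8% of those of Manf. The J-domain proteins Dnajc3 (p58IPK) and Dnajb11 (ERdj3) deliver clients to BiP. Dnajc3 went from 165 ± 3.93 CPM at CT12 to 220.5 ± 5.45 CPM at CT16 in sham (SD, n = 3), and Dnajb11 from 73.4 ± 3.66 to 104 ± 4.08 CPM. In ADX the corresponding means were 164 ± 5.04 and 194 ± 12.08 CPM for Dnajc3 and 73.7 ± 3.21 and 92.1 ± 2.84 CPM for Dnajb11. The CT16 libraries of both genes lay above those of CT12 in both statuses. Dnajb9 (ERdj4), which recruits BiP to IRE1, peaked earlier, at 15.66 ± 0.75 h in sham with a difference of 0.40 ± 0.08. In ADX its difference was 0.23 ± 0.08 (edgeR adjusted p = 0.116, or 0.0462 without ADX CT12 replicate 3). Hspa13, a microsomal Hsp70-like protein, was called in sham with 0.28 ± 0.06 and had 0.08 ± 0.06 in ADX (adjusted p = 0.6). Dnajc10 (ERdj5), a J-domain protein with reductase activity, was the exception among the 11. It lay at 134 to 153 CPM with a median of 145 in sham, and the edgeR adjusted p of its shared rhythm was 0.0956, or 0.0446 without sham CT04 replicate 3.

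Both lectins of the calnexin cycle, which hold monoglucosylated glycoproteins during folding, were called in both statuses. Calr, the soluble calreticulin (ENSMUSG00000003814, chromosome 8, 84841850 to 84846934, minus strand), measured 466, 508 and 464 CPM at CT12, 776, 876 and 842 CPM at CT16 and 756, 869 and 883 CPM at CT20 in sham. In ADX it measured 485, 471 and 494 CPM, 708, 652 and 708 CPM and 759.6, 822 and 670.2 CPM. Its fitted difference was 0.85 ± 0.08 in sham and 0.67 ± 0.08 in ADX, with peaks at 19.37 and 19.98 h. Canx, the membrane-bound calnexin, changed less, by 0.36 ± 0.04 and 0.28 ± 0.04, and measured 425, 412 and 417 CPM at CT12 and 526, 527 and 508 CPM at CT16 in sham. In ADX these were 414, 409.5 and 405 CPM and 497, 476 and 475 CPM, and the CT12 and CT16 libraries of Canx did not overlap in either status. Per length, Calr had the highest mean level of the 36 genes, 523 RPKM (CPM divided by gene length in kilobases), followed by Hspa5 with 462 and Hsp90b1 with 442 RPKM.

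Of the 6 disulfide isomerases, 5 had a called shared rhythm and all 5 peaked between 16 and 21 h. Pdia3 (ERp57), the partner of the lectins, measured 347, 353 and 359 CPM at CT08 and 514, 589 and 605 CPM at CT20 in sham. In ADX it measured 368, 333 and 373 CPM and 514, 548 and 425 CPM, with no overlap between the times in either status. Its fitted differences were 0.74 ± 0.07 and 0.52 ± 0.07 (log2, SE). Pdia6 and Pdia4, which associate with BiP, were also called in both statuses. Pdia6 had 0.89 ± 0.10 in sham and 0.66 ± 0.10 in ADX, and its libraries measured 141, 150.3 and 134 CPM at CT12 and 234, 260.5 and 256 CPM at CT16 in sham. The ADX libraries of Pdia6 measured 140.1, 132 and 141 and 218, 195 and 204 CPM. Pdia4 had 0.69 ± 0.09 and 0.53 ± 0.09, with 104, 105 and 104 CPM at CT12 and 156, 181 and 161 CPM at CT16 in sham. Its ADX libraries measured 104, 99.3 and 104 and 146, 137 and 138 CPM, and all of these steps were without overlap. Pdia6 overlaps Atp6v1c2 on the opposite strand, with 10.1% as many counts. P4hb, protein disulfide isomerase itself and also a subunit of prolyl 4-hydroxylase, changed by only 0.21 ± 0.04 in sham and 0.15 ± 0.04 in ADX. Its ADX call was lost without the 3 muscle-high libraries (edgeR adjusted p = 0.0635) and without ADX CT08 replicate 1 (0.0524) or CT16 replicate 1 (0.0536). That call was also lost without the filter on low counts (0.0657) and in a test of any difference among the times (0.0528). Pdia5, at 3.15 RPKM among the least abundant of the 36, was called in sham with 0.55 ± 0.11 and had 0.16 ± 0.11 in ADX (adjusted p = 0.559). Txndc5 (ERp46) was not called in any test of rhythm, with 122 to 145 CPM with a median of 140.1 in sham and an adjusted p of the shared rhythm of 0.865. It overlaps Bmp6 on the opposite strand, whose counts came to 46.2% of its own.

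Transcripts of the 3 sensors varied little over the day. Atf6 lay at 90.5 to 99.7 CPM with a median of 94.9 in sham and at 91.4 to 102 CPM with a median of 94.5 in ADX, and its peak-to-trough difference was 0.07 ± 0.03 and 0.05 ± 0.03 (log2, SE). Ern1 had 0.11 ± 0.06 and 0.10 ± 0.06, and no cosine was called for either gene (edgeR adjusted p of the shared rhythm 0.111 and 0.114). Ern1 did differ among the 6 times in a test without an assumed shape (adjusted p = 0.00741 shared), with 67.8 ± 1.88 CPM at CT24 as its highest mean in sham and 57.0 ± 4.71 CPM at CT16 as its lowest (SD, n = 3). The cosine call was also made without sham CT04 replicate 1 (0.0251). Eif2ak3 was called in ADX, with 0.16 ± 0.04 and a peak at 8.80 ± 0.93 h, in the subjective day. In sham it had 0.08 ± 0.04. Its ADX call was lost without ADX CT08 replicate 1 (adjusted p = 0.0785) or CT20 replicate 1 (0.0794). That call was also lost without the filter on low counts (edgeR adjusted p = 0.0607) and in the test without an assumed shape (0.0593). The shared rhythm of Eif2ak3 (adjusted p = 0.00331) was called in all 36 fits that left out a library and in the 8 other alternatives.

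Of the genes downstream of the sensors, Xbp1, the transcription factor whose mRNA IRE1 splices, followed the chaperones. It measured 121, 128 and 124 CPM at CT12 and 163, 185 and 185 CPM at CT16 in sham, and 123, 122 and 121 CPM and 152, 156 and 148 CPM in ADX. The times did not overlap in either status, and the fitted differences were 0.54 ± 0.08 in sham and 0.48 ± 0.08 in ADX with peaks at 17.54 and 17.70 h. Gene counts do not separate spliced from unspliced Xbp1. Atf4, which is controlled mainly at translation, lay at 151 to 175 CPM with a median of 166 in sham and had 0.08 ± 0.04 and 0.10 ± 0.04 (shared adjusted p = 0.0722). It was called when any of 5 libraries was left out (ADX CT08 replicate 3, 0.0437, ADX CT24 replicate 2, 0.0477, sham CT08 replicate 2, 0.0461, sham CT12 replicate 2, 0.0394, and sham CT24 replicate 2, 0.0398). Ddit3 (CHOP), a target of ATF4, peaked at 14.13 ± 0.96 h in sham with 0.19 ± 0.05. Its call in sham was lost without the 5 libraries of high Gh (edgeR adjusted p = 0.0601) and in the test without an assumed shape (0.0793). In ADX Ddit3 had 0.13 ± 0.05 and was not called (adjusted p = 0.176). Ddit3 overlaps Mars on the opposite strand, which had 274% as many counts. Trib3, another target of ATF4 and the least abundant of the 36 at 2.90 RPKM, ran in the opposite direction, with a peak at 7.80 ± 1.01 h in ADX and 0.44 ± 0.12. In sham Trib3 had 0.31 ± 0.12 (adjusted p = 0.136). The ADX call of Trib3 was lost when any of 6 ADX libraries was left out (CT04 replicate 1, CT08 replicates 1 and 2, CT16 replicate 3, CT20 replicates 1 and 3), with adjusted p up to 0.079. That call was also lost without the filter on low counts (edgeR adjusted p = 0.07) and in the test without an assumed shape (0.143). The shared rhythm of Trib3 (adjusted p = 0.00271) was called in all 36 fits that left out a library and in the 8 other alternatives.

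Degradation genes were mixed: 6 of 8 had a called shared rhythm and 4 of these peaked between 16 and 21 h. Herpud1, which organizes the HRD1 ubiquitin ligase complex (ENSMUSG00000031770, chromosome 8, 94386438 to 94395377, plus strand), had the smallest p of all 36 genes and ranked 16th among all genes tested. Its sham libraries measured 98.4, 110.3 and 109 CPM at CT04, 115, 122 and 119.8 CPM at CT08 and 143, 139 and 139 CPM at CT12. They measured 146, 142 and 133 CPM at CT16, 113, 109.6 and 116 CPM at CT20 and 97.9, 87.6 and 95.1 CPM at CT24. Herpud1 was thus at its plateau at CT12, when Hspa5 was still near its lowest level, and its CT20 libraries lay below all those of CT12 and CT16. In ADX it measured 105, 97.6 and 112 CPM at CT04, 145, 135 and 132 CPM at CT12 and 108, 103 and 104 CPM at CT24. The fitted peaks were 13.26 ± 0.31 h (sham) and 13.69 ± 0.46 h (ADX), with differences of 0.58 ± 0.05 and 0.39 ± 0.05 (log2, SE, shared adjusted p 3.14e-12). Derl3, a derlin of the retrotranslocation channel typical of secretory cells, was at the other extreme of level, with 4.85 RPKM. It measured 4.61, 4.80 and 4.49 CPM at CT12 and 8.61, 10.7 and 9.71 CPM at CT20 in sham, and 4.87, 4.99 and 5.47 CPM and 7.36, 9.16 and 7.38 CPM in ADX. The times did not overlap, and the differences were 1.15 ± 0.14 in sham and 0.67 ± 0.14 in ADX.

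Edem1, a mannosidase-like protein that marks glycoproteins for degradation, had 0.36 ± 0.07 in sham and 0.25 ± 0.07 in ADX, where its call (adjusted p = 0.0447) was lost in 23 of 36 fits that left out a library (up to 0.112). That call was also lost without the 3 muscle-high libraries (edgeR adjusted p = 0.105) and without the filter on low counts (0.0832). It was lost too with the times of the column names in place of the labels (0.0731). The ligase adaptor Sel1l and the derlin Derl2 had small called differences in sham of 0.14 ± 0.04 and 0.18 ± 0.04, and 0.07 ± 0.04 and 0.03 ± 0.04 in ADX. Sel1l lost its sham call without ADX CT04 replicate 1, ADX CT12 replicate 1, sham CT08 replicate 2 or sham CT20 replicate 2 or 3 (edgeR adjusted p up to 0.0644). That call was also lost without the 5 libraries of high Gh (0.181) and without the filter on low counts (0.0656). In the test without an assumed shape it was lost as well (0.0704). The shared call of Sel1l was lost without the 5 libraries of high Gh (0.109). The shared call of Derl2 was kept in 24 of 36 fits that left out a library (adjusted p 0.0113 to 0.0735), and lost without ADX CT04 replicate 1 or 2, CT08 replicate 2, CT20 replicate 2 or 3, any sham CT08 library, or replicate 1 or 2 of CT16 or 2 or 3 of CT20 in sham. It was also lost without the 3 muscle-high libraries (0.0912), without the 5 of high Gh (0.17), without the filter on low counts (0.0772) and in the test without an assumed shape (0.0632). The sham call of Derl2 was lost without the 5 libraries of high Gh (0.12). Derl2 overlaps Mis12 on the opposite strand, with 103% as many counts. Os9, a lectin that delivers misfolded glycoproteins to the ligase, ran opposite to the chaperones with a peak at 9.16 ± 1.09 h (sham) and 8.95 ± 1.06 h (ADX). The change was small, 0.11 ± 0.03 and 0.11 ± 0.03, with means of 195 ± 2.72 CPM at CT12 and 178 ± 2.62 CPM at CT20 in sham (SD, n = 3). Its shared call was made in all 36 fits that left out a library. Its separate calls were made in 15 of these fits in sham and 19 in ADX, with adjusted p up to 0.114 and 0.133. Both separate calls were lost without the filter on low counts (edgeR adjusted p = 0.166 and 0.147). The sham call of Os9 was also lost without the 5 libraries of high Gh (0.0591). The ADX call of Os9 was also lost with the size factors of DESeq2 (0.0527) and in the test without an assumed shape (0.0539). Syvn1, the HRD1 ligase itself, carries an ERSE but was not called (shared adjusted p = 0.13), with 93.2 to 139 CPM with a median of 119 in sham. Derl1 was not called either (0.265). Syvn1 overlaps Mrpl49 on the opposite strand, whose counts came to 34.6% of its own. Of the translocon, the channel through which nascent chains enter the ER, neither Sec61a1 nor Sec61b had a called cosine, with differences of 0.08 ± 0.04 and 0.10 ± 0.06 in sham and 0.06 ± 0.04 and 0.05 ± 0.06 in ADX. Sec61a1 passed the same test without an assumed shape (adjusted p = 0.0071 shared).

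**Figure D3:**
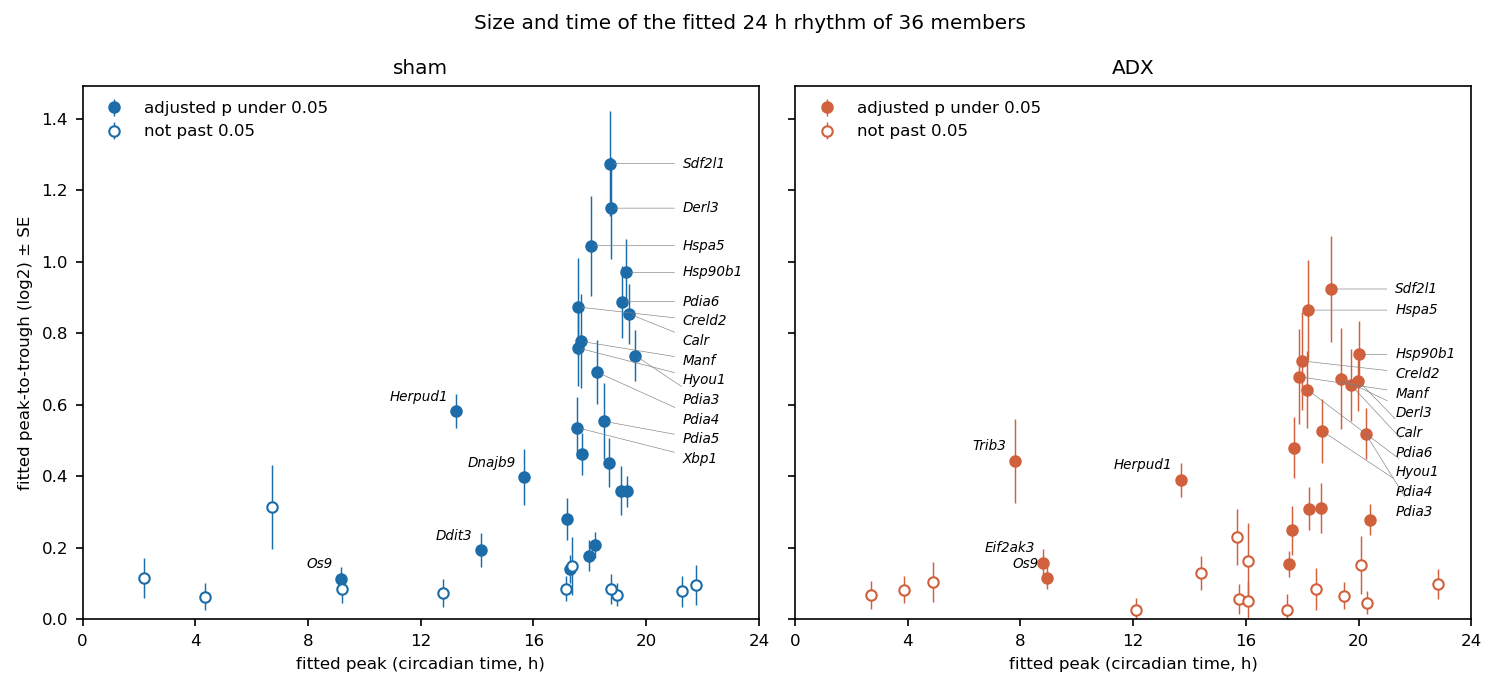
Fitted peak-to-trough difference (log2, ± SE) against fitted peak (circadian time, h) for the 36 genes in sham (left) and ADX (right). Filled points passed an edgeR adjusted p of 0.05. Large changes cluster between 17 and 21 h in both panels, with Sdf2l1 highest, and Herpud1 stands apart near 13 h.

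The high stretch began between CT12 and CT16. In sham, all 3 CT16 libraries lay above all 3 CT12 libraries in 23 of the 36 genes, as in 14.9% of all genes, and in ADX in 21 (12.8% of all genes). The median ratio of the CT16 to the CT12 mean over the 27 genes with a shared rhythm was 1.34 in sham and 1.18 in ADX, and the highest was 2.44 in sham (Sdf2l1) and 1.72 in ADX. All 6 libraries of CT16 and CT20 lay above all 12 others in 15 of the 36 genes in sham, against 0.785% of all genes, and in 12 in ADX, against 0.607%. The 15 in sham were Hspa5, Hsp90b1, Hyou1, Sdf2l1, Creld2, Manf, Dnajb11, Dnajc3, Calr, Canx, Pdia3, Pdia4, Pdia6, Xbp1 and Derl3. In ADX, P4hb joined, and Hsp90b1, Canx, Pdia3 and Dnajc3 had overlapping libraries. Without ADX CT20 replicate 3, the library with the most muscle transcripts, the ADX count was 15, as it was without all 3 muscle-high libraries, and without the 5 libraries of high Gh the counts were 15 in sham and 13 in ADX. All CT24 libraries lay below all CT20 libraries in 20 genes in sham (7.85% of all genes) and 18 in ADX (8.89%). Leaving out any library gave counts of genes high at CT16 and CT20 between 15 and 18 in sham and between 12 and 15 in ADX. Such a count can only stay or rise when libraries are left out. None of these fits, including those without muscle-high or high-Gh libraries, could therefore show a fall. By group means, 22 genes were highest at CT16 and 7 at CT20 in sham, and 13 and 14 in ADX.

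A cosine of 12 h beside that of 24 h, added after the data had been seen, was called for 16 of the 36 genes against 2.11% of all genes tested (edgeR, both statuses together). It was called in sham for 13 (0.709% of all genes) and in ADX for 4 (0.124% of all genes), and Hspa5, Manf, Hyou1 and Creld2 were called in each status. For Hspa5 the 12 h part spanned 0.52 (log2, peak to trough) beside 0.95 for the 24 h part, with maxima at 5.25 and 17.3 h. Of the 16 genes, 8 in sham and 4 in ADX also had a local maximum of the group means at CT04, which exceeded both CT24 and CT08. For Hspa5 in sham these means were 468 ± 13.2, 478 ± 33.3 and 417 ± 10.7 CPM at CT24, CT04 and CT08 (SD, n = 3), and the CT04 libraries overlapped those of CT24. For the other 8 in sham and 12 in ADX, the group means held no such maximum. Sampling every 4 h gives 3 points per 12 h cycle. Without the 3 muscle-high libraries 14 genes had a called 12 h part, and without the 5 of high Gh 12 did.

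Fitted amplitude was smaller in ADX than in sham in 30 of the 36 genes, against 56.8% of all genes, and in 24 of the 27 with a shared rhythm, where the median ratio of ADX to sham was 0.74. Of the 7331 genes with a shared rhythm 62.4% were smaller in ADX, with a median ratio of 0.87. The count of 30 lay between 28 and 32 in the alternative fits. No gene passed a test that compared the rhythms of sham and ADX directly (edgeR, 0 of 36 and 0% of all genes, with 3.57% of all genes at an unadjusted p under 0.05). DESeq2 also called 0 of the 36, and Herpud1, Pdia5 and Derl3 had an unadjusted p under 0.05 in edgeR (0.0197, 0.0236 and 0.0493). The largest difference among the 36 was that of Derl3, -0.48 ± 0.20 (log2 peak-to-trough, ADX minus sham), followed by Pdia5 with -0.39 ± 0.15 and Sdf2l1 with -0.35 ± 0.21. For Hspa5 it was -0.18 ± 0.20, and for Herpud1 -0.19 ± 0.07. Every one of the 36 had an edgeR adjusted p of the difference that rounds to 1. ADX CT20 replicate 3, the library with the most muscle transcripts, had the lowest CPM of its group for Hspa5, Hsp90b1, Calr and Pdia3. Without the 3 muscle-high libraries the ADX peak-to-trough difference of Hsp90b1 was 0.80 and that of Hspa5 0.87, and amplitude was smaller in ADX in 28 of the 36. Without the 5 libraries of high Gh it was smaller in 28 as well.

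**Figure D4:**
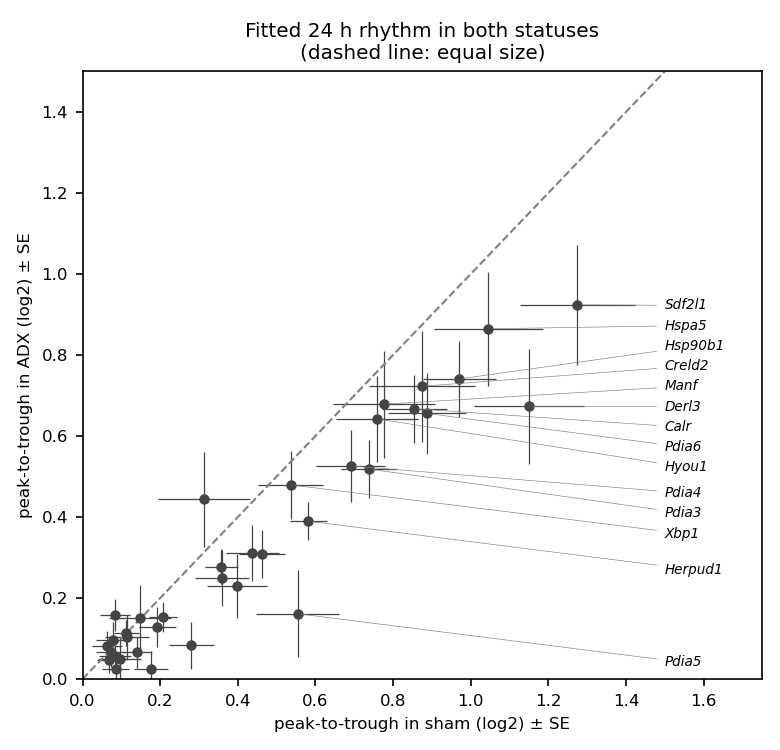
Fitted peak-to-trough difference in ADX (vertical, log2, ± SE) against that in sham (horizontal, log2, ± SE) for the 36 genes, with a dashed line of equal size. In 30 genes the point lies below the line, and the error bars of most points near it cross it.

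Averaged over the 6 times, Hspa5 was the only one of the 36 genes called between ADX and sham, where 0.718% of all genes were called and 0.372% were called lower in ADX. Over 18 libraries each, Hspa5 ranged from 407 to 997 CPM in sham with a median of 469 and from 387 to 794 CPM in ADX with a median of 451. The statuses overlapped widely because each spans the whole day, and within times the log2 fold change was -0.12 ± 0.03 (SE, edgeR adjusted p = 0.0429). The call is marginal. It was made in 13 of 36 fits that left out a library, namely ADX CT04 replicate 2, CT08 replicate 1, CT16 replicate 1 and all 3 of CT20, and sham CT04 replicates 1 and 3 and replicate 1 of CT08, CT12, CT16 and CT20 and replicate 3 of CT24, and was lost in the other 23 (adjusted p 0.0174 to 0.086 over all 36). Without the 3 muscle-high libraries and without the 5 of high Gh no gene of the 36 was called. Leaving out sham CT20 replicate 1 called 6 of the 36 among 302 of all genes, leaving out sham CT16 replicate 1 called 4 among 240, leaving out ADX CT04 replicate 2 called 2 among 240, and DESeq2 called 10 among 645, where the main test called 162. All of these calls among the 36 were lower in ADX. Of the 36 genes, 28 had a negative fold change (49.3% of all genes), with a median of -0.04, and 19 had an unadjusted p under 0.05, as did 15.6% of all genes.

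Split by time, the median difference was largest at CT16. There, 31 of the 36 genes had a lower estimate in ADX (47.5% of all genes), the median was -0.17 on the log2 scale, and 21 had an unadjusted p under 0.05 in that direction, as did 3.92% of all genes. None was called after adjustment over all genes, in a comparison where 0% of all genes were, and the smallest adjusted p among the 36 was 0.24. Hspa5 measured 860.3, 997 and 918 CPM in sham and 794, 706 and 704 CPM in ADX at CT16, without overlap, a log2 fold change of -0.33 ± 0.07 (SE). For Manf it was -0.32 ± 0.07, with 94.2, 111 and 101 CPM in sham and 84.0, 79.1 and 82.2 CPM in ADX. Sdf2l1 had the largest estimate, -0.44 ± 0.10, and its 3 sham libraries also lay above its 3 ADX libraries. Xbp1 had -0.23 ± 0.05, Calr -0.27 ± 0.06 and Pdia3 -0.20 ± 0.07. The sensors had 0.01 ± 0.04 for Atf6 and 0.03 ± 0.06 for Ern1. Leaving out sham CT16 replicate 1, the lowest sham library of CT16 for most chaperones, called 7 genes at CT16 (Hspa5, Hyou1, Sdf2l1, Creld2, Manf, Calr and Xbp1) among 24 of all genes, and DESeq2 called 6 (the same without Creld2) among 20. At the other 5 times the medians lay between -0.06 at CT20 and 0.02 at CT08. Single libraries moved them. The median at CT20 was -0.11 without ADX replicate 2 of that time and -0.04 when sham replicate 2 was left out instead, and that at CT04 turned from -0.01 to 0.02 without sham CT04 replicate 2, with 11 negative genes in place of 21, and to -0.04 without sham CT04 replicate 1. The median at CT08 was 0.04 without ADX CT08 replicate 2 and 0.0045 without ADX CT08 replicate 3, that at CT12 was -0.03 without sham CT12 replicate 3 and -0.01 without sham CT12 replicate 2, and that at CT24 was -0.03 without ADX CT24 replicate 2. At CT16 the median stayed between -0.19 and -0.13 without any 1 library. At the other 5 times 0 of the 36 genes were called, where 0% of all genes were called except at CT20 (0.00443%). With edgeR, 5 of the 36 had an unadjusted p under 0.05 at CT04 (9.3% of all genes), 1 at CT08 (4.28%), 1 at CT12 (5.41%), 9 at CT20 (7.49%) and 4 at CT24 (5.74%). The counts at CT08 and CT12 were thus below the share of all genes. DESeq2 also called 0 at each of these times.

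**Figure D5:**
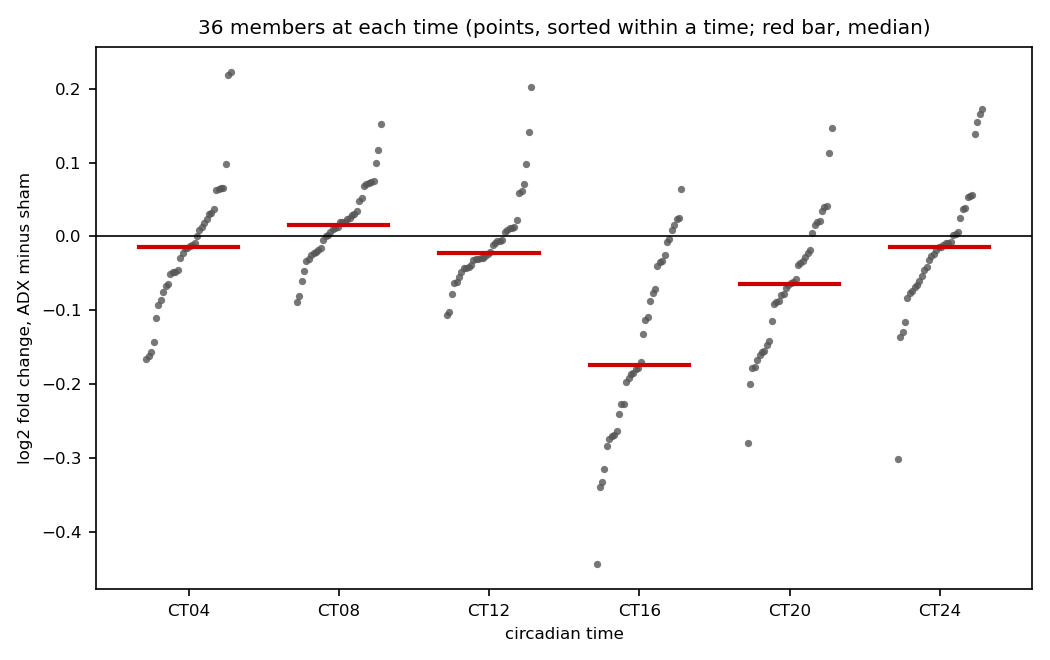
Log2 fold change of ADX against sham (vertical) for the 36 genes at each circadian time (horizontal), sorted within a time, with the median as a red bar. At CT16 the median is -0.17 and 31 of the 36 points lie below 0, while at CT04, CT08, CT12 and CT24 the medians lie within 0.03 of 0.

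Across the 36 libraries, log2 CPM of Hyou1 and Manf had Pearson's r of 0.98 with Hspa5, Creld2 and Pdia4 0.98, Sdf2l1 and Dnajb11 0.96, and Xbp1 and Pdia6 0.94. After each group's mean was taken away, r with Hspa5 was 0.85 for Calr, 0.84 for Pdia6, 0.83 for Hsp90b1, 0.82 for Manf and 0.81 for Pdia3. It was 0.37 for Xbp1, 0.18 for Dnajb9 and -0.003 for Herpud1. Among the other folding genes it was also low for Hspa13 (0.18), Txndc5 (0.15) and Pdia5 (0.07), and -0.11 for Dnajc10. These values share library depth and tissue makeup, and they describe these 36 libraries. Over all pairs of the 36 genes the median within-group r was 0.18, with a range from -0.68 to 0.97.

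Set against promoter content, 10 of the 11 genes with an ERSE or ERSE-II had a shared rhythm, and their median peak-to-trough difference, averaged over statuses, was 0.76 on the log2 scale. Syvn1 was the exception. Of the 19 genes with a window and neither element, 14 had a shared rhythm, with a median difference of 0.16. Of 22 tested genes with an element that are not among the 36, 10 had a shared rhythm (45.5%), 3 of them with a peak between 16 and 21 h, and the median difference of the 22 was 0.14. Of the 13833 other tested genes with a window and neither element, 35.2% had a shared rhythm, with a median of 0.15. These are counts in windows of fixed length, given as a description.

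Further genes of the ER, from lists of 110 genes, were also examined. Of these, 51 had a shared rhythm, as did 32.5% of all genes. Among the 51, 32 peaked between 16 and 21 h, against 2560 of the 7331 genes with a shared rhythm. Of the 30 folding and redox genes 18 were called, led by Serpinh1, the collagen chaperone HSP47, with 1.39 ± 0.19 in sham (log2, SE) and 0.96 ± 0.19 in ADX, followed by Dnajc1 and Cnpy4. Glycosylation genes, with 12 of 18 called, were led by Magt1, Mlec and Rpn1, which had differences of 0.58, 0.34 and 0.35 in sham. Stress signalling genes, with 8 of 20, were led by Creb3l1 (OASIS), a transmembrane transcription factor of bone and matrix-secreting cells, with a later peak at 21.83 h in sham, and by Mbtps2 and Atf6b. Of the translocon and signal peptidase genes 5 of 18 were called, led by Spcs2, Spcs3 and Tram1, and of the degradation genes 8 of 24, led by Ufd1, Erlec1 and Ubxn4. Both counts were close to the share of all genes. Ufd1 and Erlec1 peaked at 7.86 and 7.36 h in sham, in the subjective day. Between ADX and sham over the mean of the times, Mlec and Ero1a, an oxidase that recharges protein disulfide isomerase, were called lower, with log2 fold changes of -0.07 ± 0.02 and -0.09 ± 0.02, and no gene of the 110 was called higher. Of the chaperones of the cytosol and mitochondria, 22 of 23 had a shared rhythm and 21 of these peaked between 16 and 21 h, with a median peak-to-trough difference of 0.55 in sham and 0.50 in ADX, against 0.36 and 0.24 for the 36 ER genes. By smallest p these were led by Hspb1, Hspa4l, Chordc1, Hsp90ab1 and Hsph1.

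Markers of other cell types were read in the same libraries. Over all genes tested, 32.5% had a called shared cosine, and 7495 of 22556 differed among times in the test without an assumed shape. Of 10 plasma cell markers 0 had a shared rhythm, and their summed level lay between 777 and 1516 CPM in sham and between 1051 and 2131 CPM in ADX, where 2 of the 10 were called higher over the mean of the times. Its median over the libraries of a time, both statuses together, was 1218 CPM at CT12 and 1269.5 CPM at CT16. None of the 10 plasma cell markers was at 0 in all libraries. Of 10 osteoblast markers 2 had a called shared cosine, 0 of them between 16 and 21 h, and 8 differed among times in the test without an assumed shape. All 10 had a lower estimate in ADX over the mean of the times (median -0.23 on the log2 scale, all 10 at an unadjusted p under 0.05), and 3 were called. Of 7 stria vascularis markers 2 had a called cosine, 1 of them between 16 and 21 h, and 6 differed among times. Spiral ganglion neuron and chondrocyte markers each had 3 of 7 called, 0 between 16 and 21 h, and 0 and 4 differed among times. Hair cell markers had 0 of 10 in both tests. Of 7 fibroblast markers 2 had a called cosine, 0 between 16 and 21 h, and 6 differed among times. Their summed level had a median of 2745 CPM at CT12, 2696 CPM at CT16 and 3665.5 CPM at CT20. Neutrophil markers differed among times in 10 of 10, with 0 called shared cosines and a summed median that was highest at CT24 (9939 CPM), and 10 of 10 were lower in ADX (median -0.19, 2 called, 10 at an unadjusted p under 0.05). Markers of B lymphocytes were higher in ADX in 8 of 8 (median 0.30, 0 called, 8 at an unadjusted p under 0.05), and erythroid markers were lower in 8 of 8 (median -0.17, 0 called, 5 at an unadjusted p under 0.05). All 10 plasma cell markers had a higher estimate in ADX (median 0.27, 7 at an unadjusted p under 0.05), as did 7 of 7 markers of spiral ganglion neurons (median 0.12, 0 called), and 7 of 7 markers of the stria vascularis had a lower one (median -0.07, 0 called). Of the 7 fibroblast markers 5 were lower (median -0.07, 0 called, 4 at an unadjusted p under 0.05). A list of 6 secretory genes (Amy1, Cpa1, Ctrb1, Pnliprp1, Bpifa1 and Muc5b) mixed genes of digestive glands and of mucosa. Of these, 3 were tested and 2 had a shared rhythm, 1 of them between 16 and 21 h. Their summed level lay between 1353 and 3693 CPM in sham and 1444 and 3461 CPM in ADX. The sum does not show which genes or cells it came from. The part of these cells in the ADX differences and in the changes among times was not tested.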

How the data were processed

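Cochlear RNA of 36 libraries (12 groups of status and time, 3 libraries each) was analysed from the deposited table of raw read counts per Ensembl gene, which the authors made from reads aligned with STAR 2.4.0i to mm10, per the submitters' processing notes. The sources used here name neither the counting program nor its strand setting. Gene symbols came from GENCODE M21 (37693 of 39017 genes). Times follow the labels, and 30 of 36 column names give a time 1 h earlier. Nothing in the labels says whether replicates are separate animals or pools, so the p-values reflect only how these libraries spread.

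Counts were scaled by TMM (factors 0.981 to 1.03) and filtered with filterByExpr in edgeR 4.0.16 (R 4.3.3), which left out genes holding 0.0779% of the counts. Quasi-likelihood tests used 12 group means (24 residual degrees of freedom) or, per status, a mean and a cosine and sine of 24 h (30 residual degrees of freedom), and p-values were adjusted by Benjamini-Hochberg over all genes tested. Standard errors of peak-to-trough differences and peak times are by the delta method. The test code was tested on simulated data. No pair of replicates looked like a library deposited again (chi-square divided by its degrees of freedom, 5.49 to 22.7). Alternatives were DESeq2 1.42.0, its size factors in edgeR, no filter, a replicate block, a test of any difference between times (5 degrees of freedom), the column-name times, the libraries in doubt left out, and each library left out. Promoter windows are from RefSeq (GRCm38.p6). Gene coordinates are from GENCODE M21 (GRCm38).

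Values are given for the 10 genes with the smallest p of the shared rhythm, those past the threshold in a comparison of ADX with sham, and up to 3 further genes of each role by mean CPM. The remaining genes of the 36 named with values were added after their values were seen. Of the other lists, up to 3 genes by smallest p are named (5 for cytosolic chaperones). The genes and lists were chosen with earlier results of these data known.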

Additional observations from a re-analysis of the deposited data

How the results depend on the processing

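Averaged over times, the ADX comparison was the least stable. Its count of 1 called gene of the 36 became 10 with DESeq2, 0 without the 3 muscle-high libraries, 0 without the 5 libraries of high Gh, and 0 to 6 on leaving out single libraries, and the cause was not tested. Over all genes the 162 calls became 645 with DESeq2, 11 without the libraries of high Gh and 21 to 302 on leaving out single libraries. At CT16 the count of 0 became 6 with DESeq2 and 0 to 7 on leaving out single libraries, where 7 arose without sham CT16 replicate 1. Counts of rhythm stayed within 21 to 25 in sham, 16 to 21 in ADX and 25 to 28 shared, and the difference in rhythm had 0 calls among the 36 throughout the alternatives run. Over all genes the ADX rhythm count was 2120, or 1411 without the filter, and the sham count 3628, or 2444 without the libraries of high Gh. The fold change of Hspa5 over the mean of the times stayed negative (-0.138 to -0.107 on leaving out single libraries). A peak-to-trough difference cannot be negative, so these fits could not show a reversal of a rhythm.

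Same-numbered libraries of different groups did not deviate together (median r of -0.006, range -0.373 to 0.265, over 0.1 in 28 of 198 pairs), so the numbers were not taken as pairs. With the replicate block, the calls among the 36 were 1 for the mean, 25 in sham, 20 in ADX, 27 shared and 0 for the difference. The ADX call lost under the block was that of Os9 (adjusted p = 0.0559). The depth of 3 libraries per group limits the comparisons at single times, and the lowest count of 48 concerns Trib3.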
